A study of Mus musculus with 2 samples.

Results

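Transcripts of 33 genes of fatty acid uptake, fatty acid oxidation and lipid droplets were followed in single mouse muscle stem cells, the resident stem cells of skeletal muscle. The genes were matched by symbol to a list that was drawn up with earlier results of these data known. Of the 33 genes, 30 had a row among 21216 genes, and Cpt1b, Hadhb and Etfb were not analysed here. Crat, Ppara and Fabp3 had a row in the table of plate 1 and none in that of plate 2, where they were counted as 0. The remaining 27 had a row in both. A count in at least 1 cell was found for 29 of the 30, and Fabp3, a fatty acid binding protein, was listed at 0 in every well of plate 1.

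Cells make energy from fatty acids in a chain of steps. Fatty acids enter the cell or are released from the triglyceride of lipid droplets, are coupled to coenzyme A, pass into mitochondria as carnitine esters, and are shortened by beta-oxidation, which feeds electrons into the respiratory chain. In skeletal muscle, quiescent stem cells are known for a high use of fatty acid oxidation, and their activation is known for a turn towards glycolysis. Perilipins coat the droplets and govern the access of lipases to them.

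The study held 1 library for each of 4 conditions, with no genotype, sex or age stated for the mice: 121 cells cultured in galactose, 120 in low glucose, 113 in high glucose, and 102 freshly isolated cells, which the labels call quiescent. The cultured cells spent 96 h in medium with 10 mM galactose, 5 mM glucose or 25 mM glucose, always together with 1 mM pyruvate, bovine and horse serum, chick embryo extract and the growth factor bFGF. Sorted cells lay in 384-well plates, 1 per well, and were read with a modified CEL-Seq2 protocol, which tags polyadenylated RNA with a barcode for the well. High glucose and freshly isolated cells shared plate 1, galactose and low glucose cells shared plate 2, and each condition filled its own 6 plate rows. Counts were summed over the cells of a condition (a pool) and given in counts per 1000000 gene counts (CPM). Gene counts summed to 2035682 in galactose, 1734279 in low glucose, 887611 in high glucose against 284109 in freshly isolated cells, so that 1 count weighed 0.491, 0.577, 1.13 and 3.52 CPM in that order. Gene counts per count of ERCC spike-in, synthetic RNA added to the wells, were 51.9, 50.4, 60.2 and 19.6 in the same order. Transcripts of stem cell and myoblast markers were counted in 121 of 121, 120 of 120, 111 of 113 and 101 of 102 cells in that order.

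With 1 library per condition and cells that are not replicates, no test between conditions could be run and no difference has a replicate check. Each ratio below is that of the CPM of 2 pools, with an exact 95% interval that covers counting error only. A gene was measured in a comparison when the mean CPM of its 2 pools was at least 10. A call of higher or lower needed a difference of at least 1.5-fold and an interval that left out 1. The range over the 6 plate rows of a condition is given as the spread within its library.

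High glucose was first compared with freshly isolated cells, both on plate 1, which sets 96 h of culture in the usual rich medium against cells straight from muscle. Here 20 of the 30 genes were measured, and 2 of them, Plin2 and Eci1, were higher, against 21.7% of all measured genes. Another 4, Pnpla2, Acsl3, Acsl4 and Lpl, were lower, against 13.4% of all measured genes, and 14 were neither. The median log2 ratio of the 20 genes was -0.37, and that of all 8882 measured genes was 0.34. Summed over all 30 genes, the level was 1442 CPM in high glucose against 1454 CPM in freshly isolated cells, a ratio of 0.992 (0.887 to 1.11). Without Plin2, the sums were 1089 and 1422 CPM in the same order, a ratio of 0.766 (0.681 to 0.863). Per 1000 spike-in counts, the 30 genes summed to 86.9 in high glucose against 28.5 in freshly isolated cells, a ratio of 3.04 (2.72 to 3.41), and without Plin2 the ratio was 2.35 (2.09 to 2.65). The near-equal sums in CPM held opposite movements, which the following paragraphs give by step of the pathway.

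**Figure D1:**
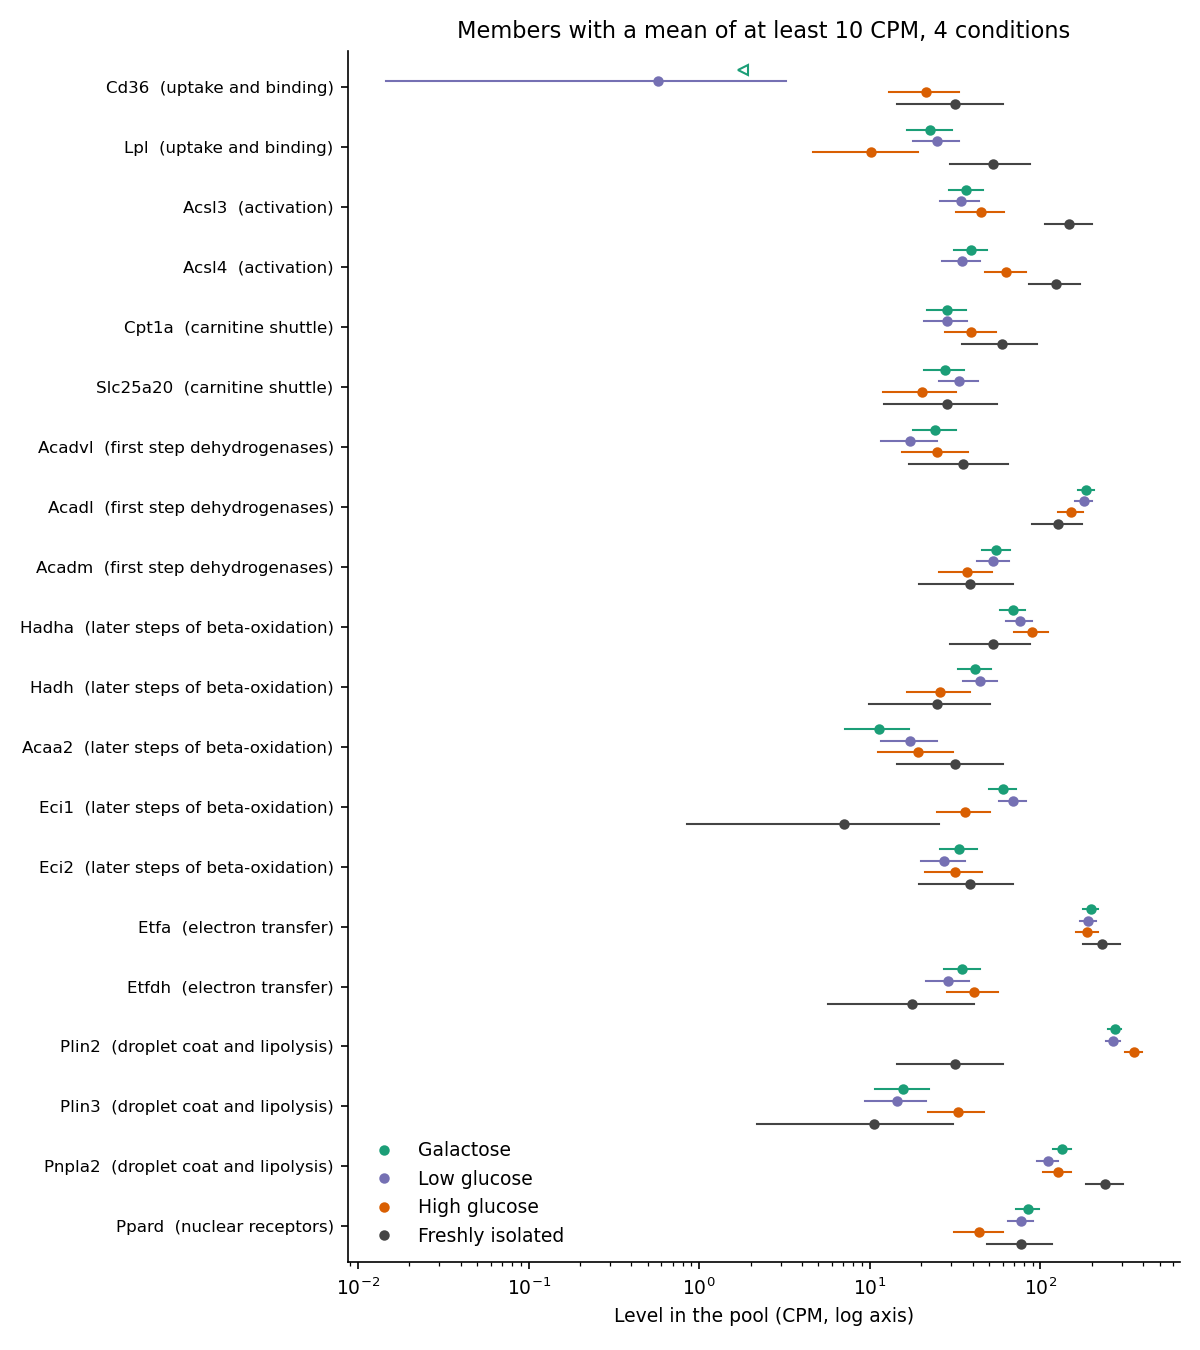
Level of each gene with a mean of at least 10 CPM over the 4 pools, in CPM on a log axis, with exact Poisson 95% intervals (lines) for galactose, low glucose, high glucose and freshly isolated cells. The open triangle marks the upper limit for Cd36 in galactose, where no count was found, and the Plin2 levels of 272, 268 and 353 CPM in the 3 cultures lie to the right of 31.7 CPM in freshly isolated cells.

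Plin2 (ENSMUSG00000028494), the coat protein found on lipid droplets of most cell types, had the most counts of the 30 genes, 1340 over all cells. Its level was 272 CPM in galactose, 268 CPM (244 to 293) in low glucose, 353 CPM (315 to 394) in high glucose and 31.7 CPM (14.5 to 60.1) in freshly isolated cells. All 3 cultures were thus far above freshly isolated cells, while low glucose and galactose differed by less than their counting intervals. Only high glucose shared the plate of the freshly isolated cells. For galactose and low glucose, culture and plate cannot be told apart in this contrast. The plate rows ran from 245 to 421 CPM (median 351) in high glucose and from 0 to 58.5 CPM (median 28.6) in freshly isolated cells. The rows of the pair did not overlap, and leaving out any row of either condition kept the ratio between 9.65 and 13.7. Plin2 remained higher in high glucose under 24 of 24 other settings of the processing. Some of these settings could hardly change a call, here and for the other genes. The pseudocount does not enter a call, and dropping the CPM minimum cannot undo one. Dropping the minimum on wells added 1 well of 8 counts, and equal weight per well reused the interval of the pools. Per 1000 spike-in counts, Plin2 stood at 21.2 in high glucose against 0.622 in freshly isolated cells, a ratio of 34.2 (17.8 to 75.4).

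Cell by cell, Plin2 was counted in 99 of 121 galactose cells, 93 of 120 low glucose cells, 68 of 113 high glucose cells and 9 of 102 freshly isolated cells. Each of the 9 freshly isolated cells held 1 count, whereas the highest count in 1 cell was 21 in galactose, 20 in low glucose and 16 in high glucose. These shares move with depth, so every cell was also thinned at random to 1000 gene counts, which left out 1 high glucose cell. The share of cells with a Plin2 count was then 19.8% (13.1 to 28.1, exact binomial 95% interval) in galactose, 20.8% (14.0 to 29.2) in low glucose, 17.9% (11.3 to 26.2) in high glucose and 3.92% (1.08 to 9.74) in freshly isolated cells. At equal depth the 3 cultures lay close together and above the freshly isolated cells, whose plate only high glucose shared. No cell type that should lack Plin2 was sorted, so no background share can be set beside these values. At this depth the variance of Plin2 over its mean was 1.23 in galactose, 0.989 in low glucose, 1.51 in high glucose against 0.970 in freshly isolated cells, where pure counting gives a value near 1.

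**Figure D2:**
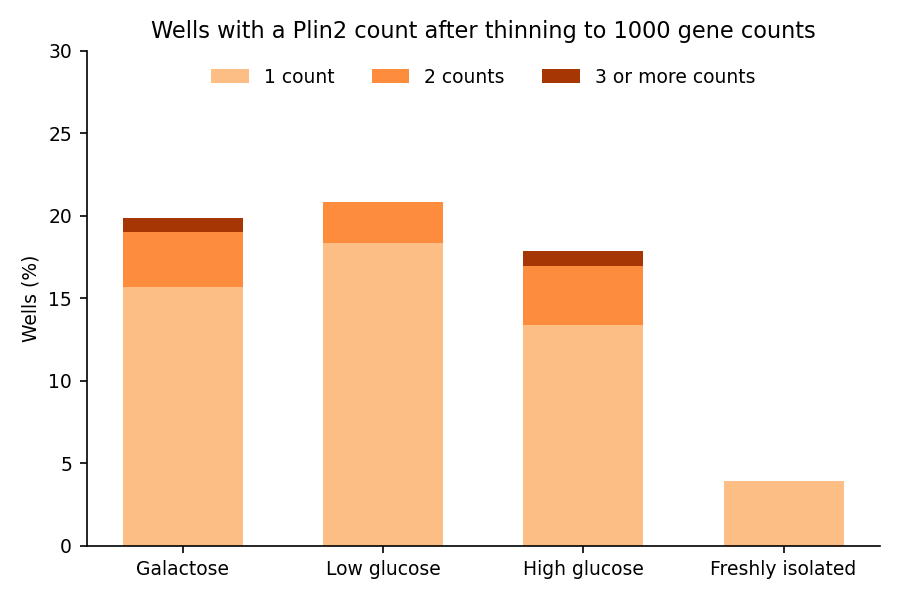
Share of cells (%) with 1, 2 or 3 or more Plin2 counts after every cell was thinned to 1000 gene counts, for galactose, low glucose, high glucose and freshly isolated cells. The stacked bars reach 19.8%, 20.8%, 17.9% and 3.92%, and cells with more than 1 count occur in the 3 cultures.

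Pnpla2 (ENSMUSG00000025509), the lipase that takes the first fatty acid from stored triglyceride, went the other way. It had 134 CPM (119 to 151) in galactose, 110.1 CPM (95.1 to 127) in low glucose, 126 CPM (104 to 152) in high glucose and 239 CPM (186 to 303) in freshly isolated cells. High glucose over freshly isolated cells gave a ratio of 0.527 (0.387 to 0.723). Plate rows ran from 102 to 160.3 CPM (median 119) in high glucose, and from 103 to 385 CPM (median 217) in freshly isolated cells. Freshly isolated row F thus lay within the high glucose range, and leaving out any row kept the ratio between 0.459 and 0.623. After thinning every cell to 1000 counts the ratio was 0.515 (0.2395 to 1.06) and Pnpla2 was no longer called. Per spike-in count the direction turned, with 7.60 per 1000 spike-in counts in high glucose against 4.70 in freshly isolated cells, a ratio of 1.62 (1.19 to 2.22).

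The promoter windows of this pair, which differed in opposite directions on the CPM scale, are printed from RefSeq on GRCm38.p6, from 250 bases before to 50 after the annotated start. That of Plin2 is chr4:86670010-86670309 on the minus strand and that of Pnpla2 is chr7:141454938-141455237 on the plus strand. Capitals mark every match, on either strand, to AGGTCA (the core that nuclear receptors bind), CACGTG (an E-box), CCAAT (the CCAAT box) and GGGCGG (the GC box).
Plin2: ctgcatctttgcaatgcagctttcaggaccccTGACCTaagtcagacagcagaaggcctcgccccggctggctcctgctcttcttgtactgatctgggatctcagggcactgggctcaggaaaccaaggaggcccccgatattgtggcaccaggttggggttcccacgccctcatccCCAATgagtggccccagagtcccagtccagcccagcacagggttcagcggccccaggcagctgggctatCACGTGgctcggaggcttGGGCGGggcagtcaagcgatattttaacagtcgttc
Pnpla2: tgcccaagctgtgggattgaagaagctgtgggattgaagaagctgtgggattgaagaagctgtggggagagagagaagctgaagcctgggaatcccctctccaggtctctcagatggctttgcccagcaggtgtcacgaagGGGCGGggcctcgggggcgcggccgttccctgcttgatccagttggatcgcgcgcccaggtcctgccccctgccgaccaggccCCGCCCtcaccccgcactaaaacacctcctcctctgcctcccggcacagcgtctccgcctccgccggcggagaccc

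Plin2 held 1 match to each of the 4 motifs, and Pnpla2 held 2 GC boxes. A window was found for 25 of the 30 genes, and 3 of these had 2 windows. A gene counted when any of its windows matched, while the share over all RefSeq windows counts each window. AGGTCA occurred in 5 of the 25 (20.0%), in Plin2, Acadm, Acadvl, Cd36 and Cpt1a, against 16.3% of all 32851 RefSeq windows. CACGTG occurred in 3 of 25 (12.0%), in Plin2, Lipe and Mgll, against 7.15% of all windows. CCAAT occurred in 11 of 25 (44.0%) against 37.4%, and GGGCGG in 21 of 25 (84.0%) against 35.7%. The TATA box, searched as TATAAA and present in 13.6% of all windows, had no match in any window of these 25 genes. Nor had the CRE, searched as TGACGTCA and present in 1.79% of all windows. The same held for the ERR element, searched as TCAAGGTCA (so that each match would also be one to the nuclear receptor core) and present in 0.423% of all windows. These matches describe the letters of the windows and no binding was measured.

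Among the other droplet genes, Plin3, a perilipin that moves between cytosol and droplets, had 15.7 CPM in galactose, 14.4 CPM in low glucose, 32.7 CPM in high glucose against 10.6 CPM in freshly isolated cells. Its ratio of high glucose to freshly isolated cells, 3.09, had an interval from 0.959 to 15.9 and so held 1. Leaving out high glucose row H gave 3.27 (1.01 to 16.9), and leaving out freshly isolated row D gave 8.05 (1.33 to 329), so the call depended on single rows. The lipases of the later steps were barely counted. Lipe, the hormone-sensitive lipase, had 4 counts in galactose, 5 in low glucose, 1 in high glucose against 0 in freshly isolated cells, where 3 counts would be 10.6 CPM. Mgll, the monoacylglycerol lipase, had 1, 1, 2 and 5 counts in the same order and lay under the 10 CPM minimum of this comparison. With no minimum its ratio of high glucose to freshly isolated cells was 0.128 (0.0122 to 0.782). The 5 droplet and lipolysis genes together had 515 CPM in high glucose against 299 CPM in freshly isolated cells, a ratio of 1.72 (1.36 to 2.20). Plin2 carried this sum, since the other 4 genes had 162 CPM in high glucose against 267.5 CPM in freshly isolated cells, a ratio of 0.607 (0.456 to 0.812). Per spike-in count the ratio of those 4 genes was 1.86 (1.40 to 2.49), so that their direction turned with the scale.

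Acyl-CoA synthetases couple fatty acids to coenzyme A and so open both oxidation and storage to them. The 2 measured ones, Acsl3 and Acsl4, were lower in CPM in high glucose than in freshly isolated cells. Summed over Acsl1, Acsl3 and Acsl4, the level was 80.6 CPM in galactose, 75.0 CPM in low glucose, 114 CPM in high glucose against 278 CPM in freshly isolated cells. The ratio of high glucose to freshly isolated cells was 0.409 (0.302 to 0.557). Per 1000 spike-in counts the sum was 6.85 in high glucose against 5.46 in freshly isolated cells, a ratio of 1.26 (0.926 to 1.71), on the other side of 1 with an interval that held it. Acsl1, the chief synthetase of fat and muscle, had 9, 11, 5 and 2 counts in the same order of conditions and was not measured.

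Acsl3 (ENSMUSG00000032883), a synthetase of the endoplasmic reticulum and of nascent lipid droplets, had 36.8 CPM (29.0 to 46.2) in galactose, 34.0 CPM (25.9 to 43.9) in low glucose, 45.1 CPM (32.2 to 61.4) in high glucose and 148 CPM (107 to 200) in freshly isolated cells. High glucose was at 0.305 of the freshly isolated level (0.193 to 0.482). Plate rows ran from 6.04 to 66.0 CPM (median 48.9) in high glucose and from 70.0 to 444 CPM (median 102) in freshly isolated cells, with no overlap. The top value came from freshly isolated row A, and without that row the ratio was 0.430. After thinning every cell to 1000 counts the ratio was 0.781 (0.330 to 1.82) and Acsl3 was no longer called. After thinning to 2000 counts, Acsl3 was counted in 8 of 108 high glucose cells and 17 of 82 freshly isolated cells. The means were then 0.0833 and 0.293 counts per cell in that order. Per 1000 spike-in counts, Acsl3 stood at 2.71 in high glucose against 2.90 in freshly isolated cells, a ratio of 0.935 (0.591 to 1.48).

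Acsl4 (ENSMUSG00000031278), a synthetase that prefers arachidonic acid, had 39.3 CPM (31.2 to 48.9) in galactose, 34.6 CPM (26.4 to 44.5) in low glucose, 63.1 CPM (47.7 to 81.9) in high glucose and 123 CPM (85.8 to 171) in freshly isolated cells. For high glucose over freshly isolated cells the ratio was 0.512 (0.330 to 0.805). Plate rows overlapped, from 36.3 to 108 CPM (median 61.5) in high glucose and from 52.5 to 185 CPM (median 134) in freshly isolated cells. In freshly isolated cells 9 of the 35 Acsl4 counts lay in 6 cells that held at least 3 markers of another cell type. Col3a1, among those markers, was counted in 72 of 102 freshly isolated cells, and whether the 6 cells were of another type was not tested. Without those 6 cells and 2 such high glucose cells, the ratio was 0.624 (0.385 to 1.04) and Acsl4 was no longer called. After thinning to 1000 counts it was 0.482 (0.189 to 1.14). Per spike-in count the direction turned, with a ratio of 1.57 (1.01 to 2.47). Acsl4 thus gave the least stable of the 4 lower calls, kept in 21 of 24 settings against 22 for each of Acsl3, Pnpla2 and Lpl.

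The windows of the 2 lower synthetases are shown for comparison with the droplet genes above, with the same 4 motifs in capitals. Acsl3 lies at chr1:78657575-78657874 on the plus strand and Acsl4 at chrX:142390486-142390785 on the minus strand.
Acsl3: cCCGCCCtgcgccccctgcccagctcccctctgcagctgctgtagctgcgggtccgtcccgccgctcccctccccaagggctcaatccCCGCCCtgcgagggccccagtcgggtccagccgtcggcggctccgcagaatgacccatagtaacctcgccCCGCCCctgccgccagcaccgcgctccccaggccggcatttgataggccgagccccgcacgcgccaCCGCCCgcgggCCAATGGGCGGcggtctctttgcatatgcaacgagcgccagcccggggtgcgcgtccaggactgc
Acsl4: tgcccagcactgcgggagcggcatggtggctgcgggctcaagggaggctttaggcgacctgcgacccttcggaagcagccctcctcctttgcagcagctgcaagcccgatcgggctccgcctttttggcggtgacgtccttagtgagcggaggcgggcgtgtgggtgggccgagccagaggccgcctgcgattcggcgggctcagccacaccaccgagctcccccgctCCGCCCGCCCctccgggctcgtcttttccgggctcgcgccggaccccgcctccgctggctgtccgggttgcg

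Acsl3 held 5 matches to GGGCGG and 1 to CCAAT, which abuts a GC box, and Acsl4 held 2 overlapping matches to GGGCGG. Neither window held AGGTCA or CACGTG.

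**Figure D3:**
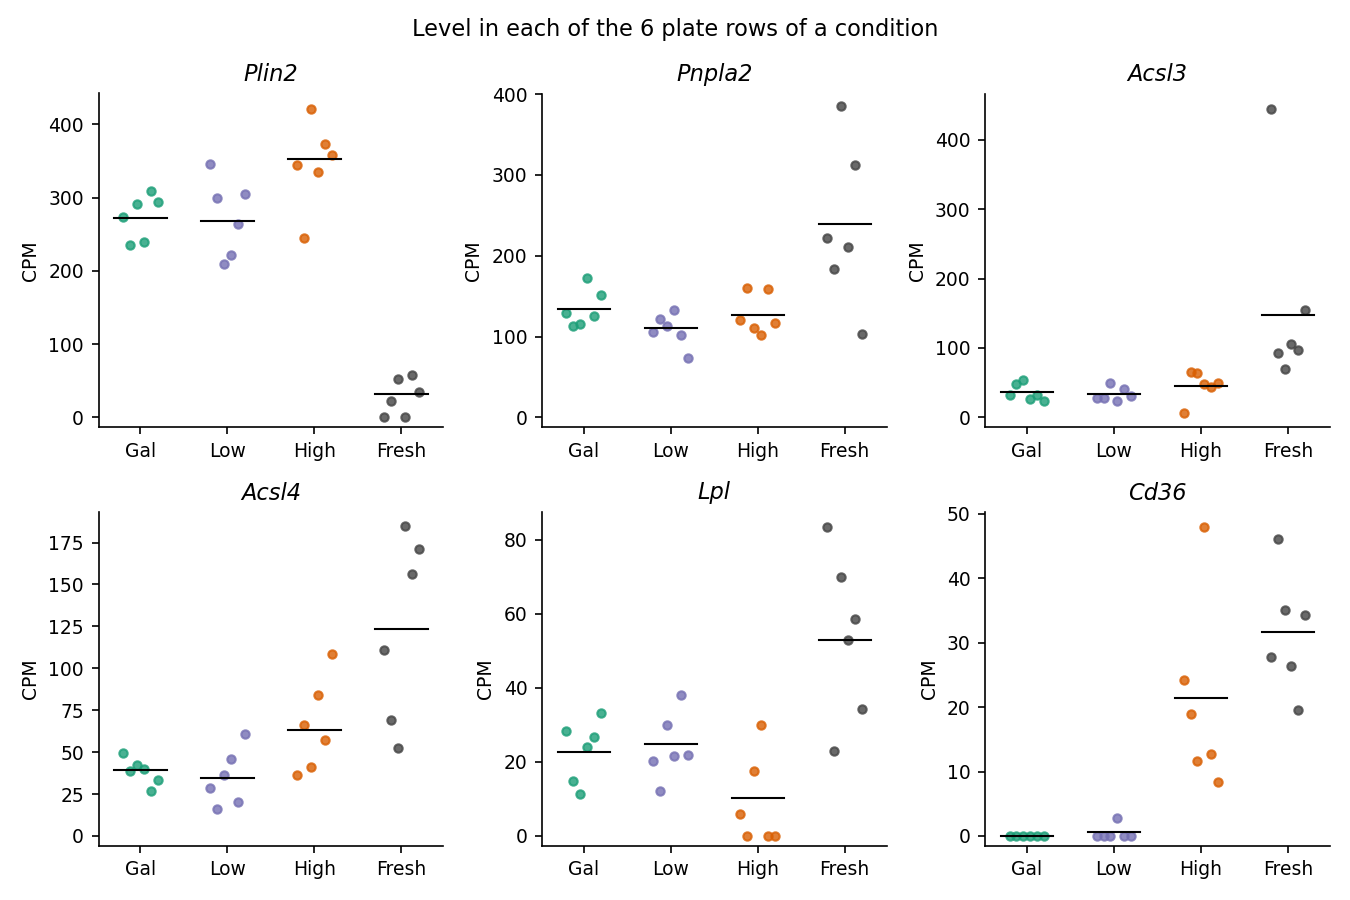
Level (CPM) of Plin2, Pnpla2, Acsl3, Acsl4, Lpl and Cd36 in each of the 6 plate rows (points) of galactose (Gal), low glucose (Low), high glucose (High) and freshly isolated cells (Fresh), with the pool's level as a line. Plin2 and Acsl3 do not overlap between high glucose and freshly isolated rows, and 1 freshly isolated row of Acsl3 reaches 444 CPM.

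The uptake genes gave small counts. Lpl, the lipase that frees fatty acids from circulating lipoproteins at the cell surface, had 46 counts in galactose, 43 in low glucose, 9 in high glucose against 15 in freshly isolated cells. These came to 22.6, 24.8, 10.1 and 52.8 CPM in the same order, and the ratio of high glucose to freshly isolated cells was 0.192 (0.0741 to 0.468). Plate rows overlapped, from 0 to 29.9 CPM (median 3.02) in high glucose and from 23.0 to 83.3 CPM (median 55.7) in freshly isolated cells. In high glucose 3 of the 6 rows held no Lpl count. Per spike-in count the ratio was 0.589 (0.227 to 1.44). The summed level of 4 fibro-adipogenic markers, of 6 listed, was 135 CPM in high glucose against 1091 CPM in freshly isolated cells. That of 6 smooth muscle and pericyte markers was 190.4 CPM in high glucose against 492.8 CPM in freshly isolated cells, and 3 of the 6 cells left out above for Acsl4 held at least 3 of these markers, the other 3 at least 3 fibro-adipogenic ones. Most of the fibro-adipogenic sum was Col3a1, at 126 CPM in high glucose and 873 CPM in freshly isolated cells, where 72 cells held a count. Most of the other sum was Acta2, at 162 and 218 CPM, and Notch3, at 19.2 and 204 CPM, in that order. Dcn had no count in either pool, and Cspg4 had none in freshly isolated cells. Without those 6 cells and 2 such high glucose cells, the Lpl ratio was 0.177 (0.0683 to 0.4315) and Lpl was still called lower. Beyond those left-out cells, the part of either list in these ratios was not tested.

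Cd36, the fatty acid translocase of the plasma membrane, was split by plate. It had 0 counts in galactose, 1 in low glucose, 19 in high glucose against 9 in freshly isolated cells, or 0, 0.577, 21.4 and 31.7 CPM. Within plate 1 the ratio of high glucose to freshly isolated cells was 0.676 (0.291 to 1.70), which held 1. Across plates, low glucose was at 0.0269 of high glucose (0.000648 to 0.169), and galactose, with no count, had an upper limit of 0.0934 of the high glucose level. The plate rows did not overlap, from 0 to 2.71 CPM in low glucose and from 8.33 to 47.9 CPM in high glucose.

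The sum of endothelial markers, of a cell type known for Cd36, moved with the plates too. The 6 endothelial markers summed to 4.42 CPM in galactose, 5.19 CPM in low glucose, 31.5 CPM in high glucose against 63.4 CPM in freshly isolated cells, with Cdh5, Esam and Tie1 at 0 in the cultures on plate 2. Tie1 was also at 0 in freshly isolated cells. Egfl7 did not split by plate, at 3.44, 2.31, 2.25 and 7.04 CPM in the same order of conditions. Fabp4, the fatty acid binding protein of fat and capillary endothelium, had 0, 1, 22 and 25 counts in that order. The 3 of 6 adipocyte markers with a row, Fabp4 among them, summed to 1.47, 1.73, 27.0 and 88.0 CPM, with Adipoq at 0 in low glucose, high glucose and freshly isolated cells and Plin1 at 0 in freshly isolated cells. On plate 1, 26 of 215 cells held a Cd36 count, 24 of them a single count and 2 of them 2 counts. All 26 also held a count of a stem cell or myoblast marker, 7 held an endothelial marker, and 28 of the other 189 cells held one. The part of free RNA or of the plate in these values was not tested, and plate and medium cannot be told apart. Fabp5, a fatty acid binding protein, had 13.3, 12.7, 9.01 and 3.52 CPM, the last from 1 count.

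The carnitine shuttle was counted at low levels. Cpt1a, which makes acylcarnitines at the outer mitochondrial membrane and sets the pace of entry, had 28.5 CPM (21.6 to 36.8) in galactose, 28.3 CPM (20.9 to 37.4) in low glucose, 39.4 CPM (27.5 to 54.8) in high glucose and 59.8 CPM (34.9 to 95.8) in freshly isolated cells. The ratio of high glucose to freshly isolated cells was 0.659 (0.359 to 1.25) and was not called. Slc25a20, the carrier of acylcarnitines through the inner membrane, had 27.5, 33.4, 20.3 and 28.2 CPM in the same order, with a ratio of 0.720 (0.298 to 1.91). Cpt2, which restores the coenzyme A ester inside, had 16, 12, 10 and 1 counts and was not measured. Crat, the carnitine acetyltransferase, had no count in high glucose and 1 count in freshly isolated cells.

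The first step of beta-oxidation is run by acyl-CoA dehydrogenases of different chain lengths. Acadl, for long chains, had 185 CPM (167 to 205) in galactose, 179.9 CPM (160.5 to 201) in low glucose, 151.0 CPM (127 to 179) in high glucose and 127 CPM (88.8 to 175) in freshly isolated cells. Its ratio of high glucose to freshly isolated cells was 1.19 (0.819 to 1.77), and plate rows of 91.6 to 228 CPM (median 139) in high glucose overlapped those of 79.2 to 194 CPM (median 118) in freshly isolated cells. Acadm, for medium chains, had 55.0, 53.0, 37.2 and 38.7 CPM in galactose, low glucose, high glucose and freshly isolated cells, and Acadvl, for very long chains, had 24.1, 17.3, 24.8 and 35.2 CPM. The ratios of high glucose to freshly isolated cells were 0.960 (0.473 to 2.11) for Acadm and 0.704 (0.320 to 1.67) for Acadvl. Acads, for short chains, had 13, 16, 5 and 0 counts and was not measured. None of the 3 measured dehydrogenases was called, and their sum with Acads gave a ratio of 1.09 (0.807 to 1.49) in CPM and 3.34 (2.48 to 4.57) per spike-in count.

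Eci1 stood apart among the later steps. This isomerase moves the double bond of unsaturated fatty acids so that beta-oxidation can go on. It had 60.4 CPM (50.2 to 72.1) in galactose, 68.6 CPM (56.8 to 82.1) in low glucose, 36.1 CPM (24.7 to 50.9) in high glucose and 7.04 CPM (0.853 to 25.4) in freshly isolated cells. Just 2 counts, in 2 cells, lie behind the freshly isolated value, so the ratio of 5.12 ran from 1.31 to 44.1. The plate rows overlapped, from 9.43 to 58.3 CPM (median 35.6) in high glucose and from 0 to 26.4 CPM (median 0) in freshly isolated cells. Without a row the ratio stayed between 4.07 and 8.88, and after thinning to 1000 counts it was 2.73 (0.219 to 143) and no longer called.

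The other 4 measured genes of the later steps were not called. Hadha, the alpha subunit of the mitochondrial trifunctional protein, had 68.8, 75.5, 89.0 and 52.8 CPM in galactose, low glucose, high glucose and freshly isolated cells, with a ratio of 1.69 (0.963 to 3.15) for high glucose over freshly isolated cells. Its plate rows ran from 58.3 to 114 CPM (median 88.0) in high glucose and from 23.0 to 97.5 CPM (median 43.2) in freshly isolated cells, and the ratio was 1.78 (1.01 to 3.34) without high glucose row L and 2.07 (1.07 to 4.49) without freshly isolated row E. Hadh, the hydroxyacyl-CoA dehydrogenase, had 41.3, 44.4, 25.9 and 24.6 CPM in the same order. Acaa2, the mitochondrial thiolase that ends each round, had 11.3, 17.3, 19.2 and 31.7 CPM, and Eci2, a second isomerase, had 33.4, 27.1, 31.5 and 38.7 CPM. The ratios of high glucose to freshly isolated cells were 1.05 (0.437 to 2.90) for Hadh, 0.605 (0.255 to 1.54) for Acaa2 and 0.815 (0.393 to 1.81) for Eci2. Decr1, the dienoyl-CoA reductase for polyunsaturated fatty acids, had 14.7, 7.50, 5.63 and 10.6 CPM and was not measured within plate 1.

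Electrons from the dehydrogenases pass through the electron transfer flavoprotein to ubiquinone. Etfa, its alpha subunit, had 197 CPM (178 to 217) in galactose, 189.7 CPM (169.8 to 211) in low glucose, 188 CPM (161 to 219) in high glucose and 229 CPM (177 to 292) in freshly isolated cells. The ratio of high glucose to freshly isolated cells was 0.822 (0.614 to 1.11), and the plate rows of 125 to 251 CPM (median 181) in high glucose lay within those of 83.3 to 360 CPM (median 232) in freshly isolated cells. Etfdh, the oxidoreductase that hands the electrons on, had 34.9, 28.8, 40.6 and 17.6 CPM in galactose, low glucose, high glucose and freshly isolated cells, with a ratio of 2.31 (0.901 to 7.52) for high glucose over freshly isolated cells. Without high glucose row G that ratio was 2.60 (1.01 to 8.52). As a block of 12 genes, mitochondrial beta-oxidation and electron transfer had 732 CPM in galactose, 719 CPM in low glucose, 655 CPM in high glucose against 612 CPM in freshly isolated cells. The ratio of high glucose to freshly isolated cells was 1.07 (0.901 to 1.27), an interval that stays within 1.5-fold in both directions on the CPM scale. Acadl and Etfa weighed most in this sum, with 134 and 167 of 581 counts in high glucose and 36 and 65 of 174 in freshly isolated cells. Ratios of the measured genes of the block ran from 0.605 for Acaa2 to 5.12 for Eci1. Per 1000 spike-in counts the block stood at 39.4 in high glucose against 12.0 in freshly isolated cells, a ratio of 3.28 (2.76 to 3.91).

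Ppard, a nuclear receptor that binds fatty acids and drives genes of their oxidation in muscle, had 84.5 CPM (72.3 to 98.1) in galactose, 76.7 CPM (64.2 to 90.9) in low glucose, 43.9 CPM (31.2 to 60.1) in high glucose and 77.4 CPM (48.5 to 117) in freshly isolated cells. Its ratio of high glucose to freshly isolated cells was 0.567 (0.328 to 1.005), just short of a call. Plate rows ran from 23.4 to 75.0 CPM (median 43.5) in high glucose and from 35.0 to 158 CPM (median 80.7) in freshly isolated cells. It became lower under TMM factors at 0.476 (0.275 to 0.843) and under median-of-ratios factors at 0.465 (0.269 to 0.823). The same held without mitochondrial genes in the total (0.556), with at least 2000 counts per well (0.534) and without cells holding 3 markers of another type (0.548). Ppard was lower too without high glucose row H, K or L or freshly isolated row B or C (0.499 to 0.549). Per spike-in count it was higher at 1.74 (1.01 to 3.08). Ppara, the PPAR of liver and oxidative tissues, had 3 counts in high glucose against 1 in freshly isolated cells.

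**Figure D4:**
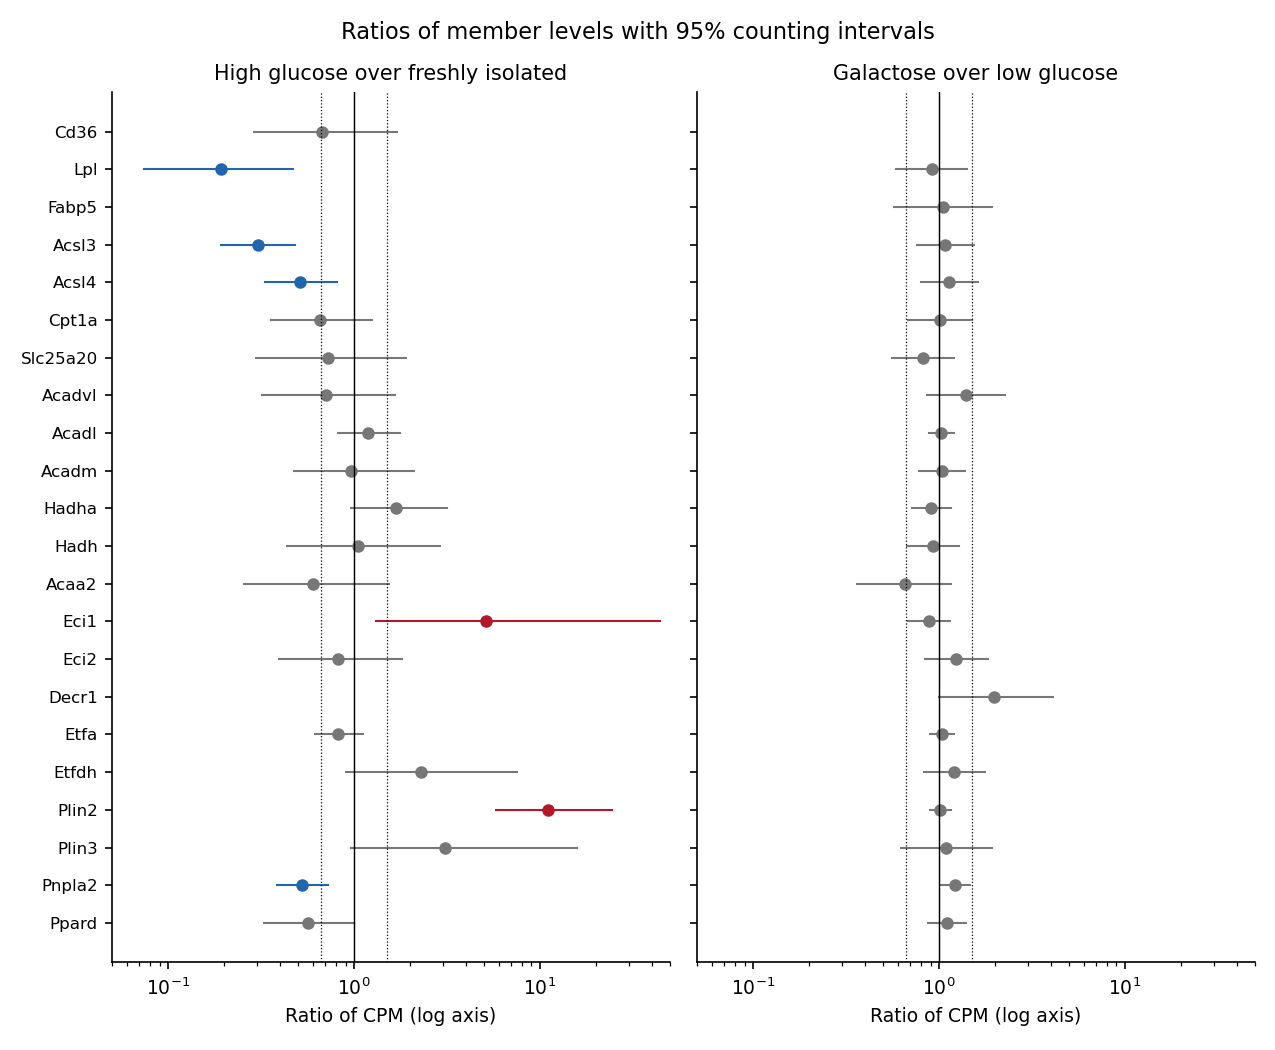
Ratio of CPM (log axis, with exact 95% counting intervals as lines) of each measured gene for high glucose over freshly isolated cells (left) and galactose over low glucose (right). Red points were called higher, blue points lower and grey points neither, the dotted lines mark 1.5-fold in either direction, and an interval that runs off the axis is drawn to its edge. On the left Plin2 lies at 11.1 and Lpl at 0.192, and on the right the points lie between 0.653 and 1.97 with none called.

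The scale matters in this comparison, because high glucose cells held 60.2 gene counts per spike-in count and freshly isolated cells 19.6. Scaled to spike-ins, 14 of the 20 genes were higher in high glucose and 0 were lower, with a median log2 ratio of 1.21. Among all measured genes, 8882 in CPM, the same scaling called 6893 higher and 226 lower. Over all measured genes this scaling moved the median log2 ratio by 1.60 and the share of calls that were higher to 96.8%, against 61.9% in CPM. TMM and median-of-ratios factors moved that median by -0.24 and -0.28 and the share to 44.7% and 41.8%. The direction of Plin2 and of Eci1 was the same on all 4 scales, whereas Pnpla2 and Acsl4 were lower in CPM and under TMM and median-of-ratios factors and higher per spike-in count. Per spike-in count, the log2 ratio was 0.69 for Pnpla2 and 0.65 for Acsl4. Spike-in scaling multiplies every ratio of this comparison by the same factor, so the order of the genes by ratio does not change.

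**Figure D5:**
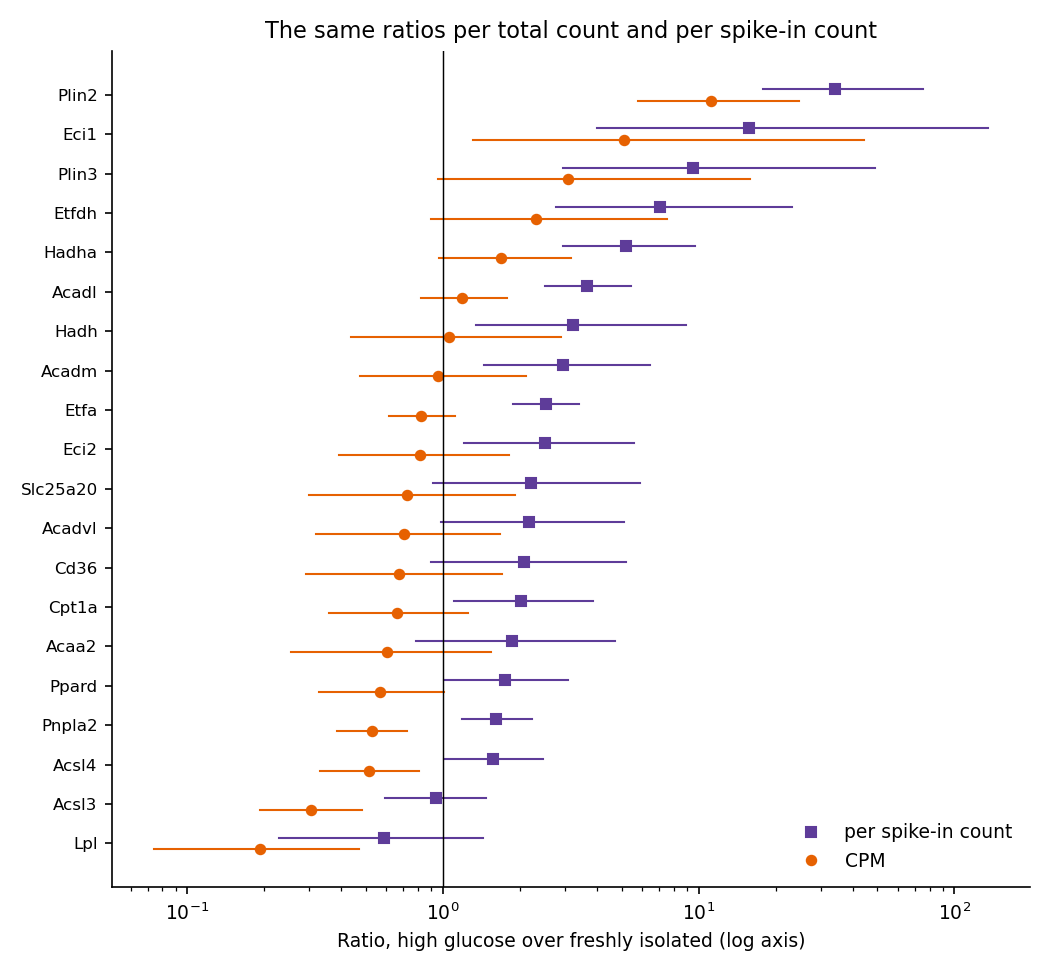
Ratio of high glucose over freshly isolated cells (log axis) for each of the 20 measured genes, per spike-in count (squares) and in CPM (circles), with exact 95% counting intervals. Every gene lies further right per spike-in count, where Plin2 reaches 34.2 and Lpl and Acsl3 remain below 1 with intervals that hold 1.

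Galactose was compared with low glucose on plate 2, which sets a sugar that cells use slowly for glycolysis against glucose. No gene of the 21 measured was called. The calls were 0 higher, against 1.53% of all measured genes, and 0 lower, against 1.25%, so that few calls would be found among 21 genes at the share of all genes. The ratios ran from 0.653 to 1.97, and their median log2 ratio was 0.05 against 0.01 for all 8689 measured genes. The interval held 1 for 20 of the 21 genes. The exception was Pnpla2, at 134 CPM in galactose and 110.1 CPM in low glucose, with a ratio of 1.22 (1.01 to 1.47) under the 1.5-fold minimum.

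Several genes were counted well enough in plate 2 to bound any change. The ratio of galactose to low glucose was 1.02 (0.898 to 1.15) for Plin2, 1.03 (0.884 to 1.20) for Acadl and 1.04 (0.895 to 1.21) for Etfa, which leaves 1.5-fold outside each interval. The same held for Ppard at 1.10 (0.874 to 1.39), Acadm at 1.04 (0.780 to 1.38), Hadha at 0.911 (0.712 to 1.16) and Eci1 at 0.881 (0.679 to 1.14). Summed over all 30 genes the ratio was 1.04 (0.981 to 1.09), and over the 12 genes of beta-oxidation and electron transfer it was 1.02 (0.945 to 1.10). These intervals cover counting error only, and each medium filled its own plate rows.

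Decr1 had the largest ratio of the measured genes, with 14.7 CPM from 30 counts in galactose and 7.50 CPM from 13 counts in low glucose, a ratio of 1.97 (0.995 to 4.11). It was called under TMM factors at 1.98 (1.003 to 4.14) and per spike-in count at 2.03 (1.03 to 4.23), and also without galactose row J, K or L or low glucose row C or D (2.05 to 2.52). The plate rows overlapped, from 2.66 to 28.3 CPM (median 13.7) in galactose and from 0 to 13.5 CPM (median 7.00) in low glucose. Acadvl was at 1.39 (0.866 to 2.27), and without low glucose row C at 1.92 (1.10 to 3.49). Acaa2 had the lowest ratio, 0.653 (0.362 to 1.16). Cpt1a, at 1.01 (0.678 to 1.51) in full, was at 7.93 (1.06 to 352) after thinning to 1000 counts, a value from very few counts.

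The comparison of low glucose with high glucose crossed the plates, so that sugar concentration and plate cannot be told apart. It also shares its high glucose pool with the first comparison and its low glucose pool with the second. Of 21 measured genes, 4 were higher in low glucose, against 7.98% of all measured genes, 3 were lower, against 10.7%, and 14 were neither. The median log2 ratio was -0.19, against -0.03 for all 8852 measured genes. The 4 higher genes were Lpl at 2.45 (1.18 to 5.71), Eci1 at 1.90 (1.28 to 2.91), Ppard at 1.75 (1.21 to 2.56) and Hadh at 1.71 (1.06 to 2.86). The 3 lower genes were Cd36, described above, Plin3 at 0.441 (0.248 to 0.780) and Acsl4 at 0.548 (0.375 to 0.804). Plin2 was at 0.759 (0.656 to 0.878), below 1 beyond counting error but under the 1.5-fold minimum.

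Some of these calls rested on few counts. The Hadh call was kept in 17 of 24 other settings and in 8 of 12 that left out a plate row, with ratios of 1.46 to 2.13; it was lost without low glucose row D or E or high glucose row G or K. That of Lpl was kept in 19 of 24 settings and in 10 of 12 without a row, with ratios of 2.01 to 4.47, and was lost without low glucose row E or high glucose row K. Eci1 kept its call in 23 of 24 settings, and Ppard, Acsl4 and Plin3 in 22 each. Without high glucose row J, Cd36 fell under the 10 CPM minimum, at a ratio of 0.0378. Without a single row, Slc25a20 (low glucose row B, 1.76, or high glucose row I, 1.997) and Acadm (low glucose row C, 1.52) became higher, and Acadvl (low glucose row C, 0.507) and Acsl3 (high glucose row G, 0.630) became lower. Galactose, on the same plate as low glucose, lay near it for each of these genes, with 22.6 CPM for Lpl, 60.4 for Eci1, 84.5 for Ppard, 41.3 for Hadh, 15.7 for Plin3 and 39.3 for Acsl4. Scaled to spike-ins, 1 of the measured genes was higher in low glucose and 7 were lower. Among all measured genes, 8852 in CPM, that scaling called 261 higher and 1950 lower. Over all measured genes the higher share of calls was 42.6% in CPM, 60.3% under TMM factors, 52.7% under median-of-ratios factors and 11.8% per spike-in count, which moved the all-gene median log2 ratio by -0.25. Within plate 2 that share was 55.0% in CPM and 68.7% per spike-in count.

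Other genes of fatty acid and droplet metabolism were taken from 7 lists of 71 genes, 62 of which had a row. In high glucose over freshly isolated cells, 38 were measured, of which 1 was higher, against 21.7% of all measured genes, 2 were lower, against 13.4%, and 35 had no call. Their median log2 ratio was 0.02, against 0.34 for all measured genes. Rxrb, a partner of the PPARs, was higher, at 58.6 CPM in high glucose against 21.1 CPM in freshly isolated cells, a ratio of 2.77 (1.19 to 7.90). Pdk4, the kinase that shuts pyruvate out of the citric acid cycle, was lower, at 159 CPM in high glucose against 296 CPM in freshly isolated cells, a ratio of 0.537 (0.407 to 0.713). Fabp4 was lower at 0.282 (0.151 to 0.521). The droplet genes Hilpda, an inhibitor of Pnpla2, and Abhd5, its activator, were neither, at 57.5 and 104 CPM in high glucose and 73.9 and 106 CPM in freshly isolated cells in that order of genes.

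In galactose over low glucose, 40 of the 62 were measured, 0 were higher, against 1.53% of all measured genes, 1 was lower, against 1.25%, and 39 were neither. The lower gene was G0s2, another inhibitor of Pnpla2, with 19 counts in 14 galactose cells and 41 counts in 13 low glucose cells, a ratio of 0.395 (0.216 to 0.696). A single low glucose cell held 24 of the 41 counts. Without that cell, left out after the values were seen, the ratio was 0.942 (0.463 to 1.93) and the gene lay under the 10 CPM minimum. G0s2 had 0 counts in high glucose against 0 in freshly isolated cells.

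In low glucose over high glucose, 41 were measured, 7 were higher, against 7.98% of all measured genes, 1 was lower, against 10.7%, and 33 were neither. G0s2, at 23.6 CPM in low glucose against no count in high glucose, was among the higher genes, and it passed the 10 CPM minimum through the 1 cell with 24 counts. Without that cell it had 17 counts (9.91 CPM) in low glucose against 0 in high glucose, with a lower limit of 2.14 for the ratio. The interval still left out 1, but the mean of the pair fell under the 10 CPM minimum. The other 6 higher genes were Ech1 at 2.70 (1.40 to 5.70), Acat1 at 2.56 (1.46 to 4.80), Pccb at 2.49 (1.09 to 6.65), Cat at 1.81 (1.29 to 2.58), Hsd17b10 at 1.74 (1.04 to 3.03) and Hilpda at 1.59 (1.15 to 2.22). Acat1, Hsd17b10 and Pccb are mitochondrial enzymes that break down short acyl chains, branched amino acid carbons among them, Ech1 is an isomerase of peroxisomes and mitochondria, and Cat is the peroxisomal catalase. On plate 1, Ech1 had 12.4 CPM in high glucose and 21.1 CPM in freshly isolated cells, Acat1 had 16.9 and 38.7 CPM, and Cat had 50.7 and 31.7 CPM, in that order of conditions. Fabp4 was lower at 0.0233 (0.000564 to 0.144).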

How the data were processed

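Per the labels, single cells were sorted into plates, and read 1 carried a UMI in bases 1 to 6 and a well barcode in bases 7 to 14. The authors deposited raw counts for each gene in each well, not normalized, and a sheet giving the condition of each well. Whether UMIs were collapsed, the aligner, the build and the treatment of near-identical gene copies were not given in the sources used here, while edgeR is named, without a version or role, per the submitters' processing notes. Of 457 wells, 456 with at least 500 counts and 250 genes were kept, which dropped 1 high glucose well with 8 counts. The plates use 200 well barcodes in common by design. Unused columns of per-sample values numbered 0. Symbols were matched for 99.6% of rows.

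Ratios carry conditional Clopper-Pearson 95% intervals, CPM exact Poisson ones, and log2 ratios a pseudocount of 1 CPM; intervals were not adjusted for picking genes by them. Steps were tested on simulated data (Python 3.11.15, numpy 2.4.6, scipy 1.17.1, pandas 2.3.3). All 33 genes are named, with levels for those of at least 10 CPM and plate rows for called or most counted ones. Doublets were not sought, since 1 cell was sorted per well. Members and lists were chosen with earlier results of these data known. Alternatives were TMM, median-of-ratios and spike-in scaling, no mitochondrial genes in the total, equal weight per well, other minima, thinning to 1000 or 2000 counts, a pseudocount of 10 CPM, no wells with 3 markers of another type, and each plate row left out.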

Additional observations from a re-analysis of the deposited data

How the results depend on the processing

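Counts of calls held within 1.5 times, and medians within counting error, in 188 of 210 recomputations. Among the other recomputed values, log2 ratios of single genes included, 309 stayed the same, 71 moved and 4 reversed. In high glucose over freshly isolated cells, spike-in scaling gave 14 higher and 0 lower genes and a median log2 ratio of 1.21, with Acsl4 (log2 0.65) and Pnpla2 (log2 0.69) turned; a 50 CPM minimum gave 1 higher, and thinning to 1000 counts 1 higher and 1 lower. In galactose over low glucose, TMM and spike-in scaling each gave 1 higher (Decr1) and thinning 1 (Cpt1a). In low glucose over high glucose, spike-in scaling gave 1 higher and 7 lower, a 50 CPM minimum 2 and 0, and thinning 0 and 0. Over all measured genes, spike-in scaling gave 261 higher and 1950 lower here, and 6893 and 226 in high glucose over freshly isolated cells. After the values were seen, sums over groups were also taken per spike-in count, which turned the synthetases to a ratio of 1.26, and without Plin2, which turned the droplet group to 0.607. Fewer counts or genes remain under thinning and the higher minimum by construction; the cause of the other changes was not tested.

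Leaving out each plate row gave 2 to 3 higher, 4 to 6 lower and medians of -0.51 to -0.14 in high glucose over freshly isolated cells. The ranges were 0 to 2 higher, 0 to 0 lower and 0.03 to 0.09 in galactose over low glucose, and 2 to 5 higher, 2 to 4 lower and -0.23 to -0.11 in low glucose over high glucose. No paired analysis was possible because the result comes from no test and each condition is 1 library. Depth limits the freshly isolated pool most, where 3 counts are 10.6 CPM; genes at 0 there were not detectable at this depth.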

Other observations

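Shares of cells with a count, at 1000 gene counts per cell, were also taken for the other genes with a mean of at least 50 CPM. Etfa was counted in 19.0% of galactose cells (12.4 to 27.1, exact binomial 95% interval), 22.5% of low glucose cells (15.4 to 31.0), 22.3% of high glucose cells (15.0 to 31.2) and 15.7% of freshly isolated cells (9.24 to 24.2). Acadl was counted in 18.2% (11.8 to 26.2), 15.0% (9.14 to 22.7), 13.4% (7.69 to 21.1) and 10.8% (5.51 to 18.5) of cells in that order. Pnpla2 was counted in 12.4%, 9.17%, 10.7% and 18.6%, Acsl3 in 2.48%, 3.33%, 9.82% and 12.7%, and Acsl4 in 5.79%, 4.17%, 8.04% and 12.7%. Hadha was counted in 6.61%, 5.83%, 6.25% and 4.90%, and Ppard in 4.13%, 6.67%, 2.68% and 3.92%. Unthinned, the shares followed depth, with Etfa in 88.4%, 85.8%, 72.6% and 36.3% of cells and Plin2 in 81.8%, 77.5%, 60.2% and 8.82%. At 2000 counts, which left out 20 freshly isolated, 5 high glucose and 1 galactose cell, Plin2 was counted in 34.2%, 38.3%, 30.6% and 6.10% of cells.

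In freshly isolated cells, the variance over the mean at 1000 counts was 1.67 for Acsl4, 1.02 for Acsl3, 1.22 for Pnpla2 and 1.22 for Etfa. In high glucose cells it was 0.928, 1.07, 1.05 and 0.915 in that order of genes.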
